A study of Mus musculus with 12 samples.

Results

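The 10 genes described here encode co-receptors, adaptors and proximal kinases of immunoreceptor tyrosine-based activation motif (ITAM) signalling: the receptors Oscar, Siglec15 and Trem2, the adaptors Tyrobp (DAP12) and Fcer1g (the Fc receptor gamma chain), the kinases Syk, Btk and Tec, the membrane scaffold Lat and the inhibitory receptor Pirb (PIR-B). They were taken by symbol from the 16570 genes of the deposited table, and all 10 were found. RNA was sequenced from macrophages grown with M-CSF from bone marrow of C57BL/6J mice 6 to 8 weeks old, with 3 libraries in each of 4 groups. All groups received M-CSF at 50 ng/mL, for 2 days by the labels' treatment protocol. Their growth protocol instead describes 4 days of RANKL for osteoclasts, so the length of the RANKL culture is uncertain. The first group also received RANKL at 100 ng/mL and 1 µM RHC80267, an inhibitor of diacylglycerol lipase. The second received RANKL and 1 µM BMS309403, which blocks the lipid chaperone FABP4, the third RANKL with no inhibitor, and the fourth M-CSF alone. Whether the 3 libraries of a group came from different animals or cultures is not in the labels. The p-values therefore rest on the spread among these samples alone, and that spread may be technical.

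M-CSF keeps macrophages alive, and RANKL turns them into osteoclasts, the multinucleated cells that resorb bone. RANKL needs a co-stimulatory signal for this: OSCAR pairs with the Fc receptor gamma chain, and TREM2 and SIGLEC15 pair with DAP12, because these receptors have no ITAM of their own. Src family kinases phosphorylate the ITAM, SYK docks on it, and BTK and TEC act with adaptor proteins on phospholipase C gamma, which raises calcium and activates the transcription factor NFATc1. PIR-B carries inhibitory motifs that recruit phosphatases and oppose this signal.

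The sequences before the start of Oscar, Trem2 and Fcer1g are shown because Oscar was called in the opposite direction to Trem2 and Fcer1g in all 4 comparisons below. Each is the 250 bases before the annotated gene start, from RefSeq on GRCm38.p6, in the direction of the gene. Oscar lies at chr7:3616158-3616407 on the minus strand, Trem2 at chr17:48346151-48346400 on the plus strand and Fcer1g at chr1:171234350-171234599 on the minus strand. Capitals mark 4 motifs searched on both strands: GGAAA, the core bound by NFAT; TGANTCA, bound by AP-1; CACGTG or CATGTG, E-boxes of the type bound by MITF; and GAGGAA, bound by PU.1.
Oscar: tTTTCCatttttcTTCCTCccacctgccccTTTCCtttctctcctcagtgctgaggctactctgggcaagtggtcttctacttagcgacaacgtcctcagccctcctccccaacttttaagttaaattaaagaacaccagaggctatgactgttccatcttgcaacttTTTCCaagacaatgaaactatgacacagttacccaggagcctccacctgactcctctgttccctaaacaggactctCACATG
Trem2: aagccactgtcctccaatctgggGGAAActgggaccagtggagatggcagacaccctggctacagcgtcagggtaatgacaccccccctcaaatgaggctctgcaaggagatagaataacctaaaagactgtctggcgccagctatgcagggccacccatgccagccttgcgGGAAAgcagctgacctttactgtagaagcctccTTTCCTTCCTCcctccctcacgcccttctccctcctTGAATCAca
Fcer1g: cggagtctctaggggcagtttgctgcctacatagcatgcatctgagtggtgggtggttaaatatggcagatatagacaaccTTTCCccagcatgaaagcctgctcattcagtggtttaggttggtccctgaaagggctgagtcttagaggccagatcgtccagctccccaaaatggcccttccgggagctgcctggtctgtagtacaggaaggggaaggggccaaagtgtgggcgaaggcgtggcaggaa
The Oscar window held 3 NFAT cores, 1 PU.1 motif and an E-box that ends at the last base before the start. The Trem2 window held 3 NFAT cores, 1 PU.1 motif and 1 AP-1 motif that ends 3 bases before the start, and the third NFAT core abuts the PU.1 motif. The Fcer1g window held 1 NFAT core. Of all 32851 windows of this length, 55.6% held the NFAT core, 23.3% the PU.1 motif, 17.6% an E-box and 6.75% the AP-1 motif. A match is a description of these letters, not a binding site.

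In the deposited table, on GRCm38, Oscar spans 3609813 to 3616157, Tyrobp 30413782 to 30417582, Pirb 3712505 to 3720382 and Lat 126363827 to 126369705, all on chromosome 7. Fcer1g spans 171229572 to 171234349 on chromosome 1, Syk 52582610 to 52648792 on chromosome 13, Tec 72755718 to 72868654 on chromosome 5 and Btk 134542334 to 134583628 on chromosome X. RefSeq gave the same start and end for these 8 genes. The deposited entries of Trem2 and Siglec15 name a sequence other than a chromosome, yet end at RefSeq's chromosome position. Positions given for them are therefore RefSeq's: 48346401 to 48352276 on chromosome 17 for Trem2 and 78042493 to 78057441 on chromosome 18 for Siglec15. The expected counts of Pirb were not whole in 12 of 12 libraries. Pirb has close relatives in the Pira genes, and reads that could belong to either may be split between them, so its values are uncertain; which genes shared its reads was not tested. The other 9 genes had whole counts in every library.

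Libraries were close in depth, with total expected counts of 17760844 to 17936609 with RHC80267, 17939971 to 18344989 with BMS309403, 17885762 to 18145377 with RANKL and 18097537 to 18193362 with M-CSF. Summed levels of osteoclast markers were 16006 to 18100 CPM (counts scaled to library size) with RHC80267, 6671 to 7527 with BMS309403, 8169 to 10139 with RANKL and 108 to 132 with M-CSF. Summed macrophage markers were 20843 to 21877, 28376 to 29948, 25572 to 27238 and 32208 to 32612 CPM in the same order of groups. Most of this sum was Lyz2 in every group. Neutrophil markers summed to 672 to 1003 CPM with RHC80267, 1470 to 1583 with BMS309403, 1420 to 1626 with RANKL and 1075 to 1550 with M-CSF. The highest of them, Ngp, was at 208 to 313 CPM with RHC80267 and 469 to 537 with RANKL. The defining marker Ly6g was near the floor and its groups overlapped, at 1.14 to 1.24 CPM with RHC80267 and 0.773 to 1.455 with RANKL. Megakaryocyte and platelet markers summed to 120.7 to 124.4 CPM with RHC80267, 123.1 to 134.5 with BMS309403, 120.3 to 123.7 with RANKL and 322.0 to 336.6 with M-CSF. This sum was mostly Pf4, at 106.7 to 110.4 CPM with RHC80267 and 76.6 to 81.3 with RANKL. The defining marker Itga2b went the other way, at 3.02 to 3.65 CPM with RHC80267 and 11.5 to 12.5 with RANKL. Over all groups, B cell markers summed to 21.2 to 32.1 CPM, dendritic cell markers to 21.2 to 39.5, NK cell markers to 2.06 to 11.6 and stromal markers to 2.23 to 29.3, the last highest with RHC80267. All markers listed were in the table except 1 of 8 for mast cells and basophils and 1 of 6 for stromal cells. These sums moved with several results below, and their part in those results was not tested. In bulk RNA, fewer cells of a type and less RNA per cell cannot be told apart.

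**Figure D1:**
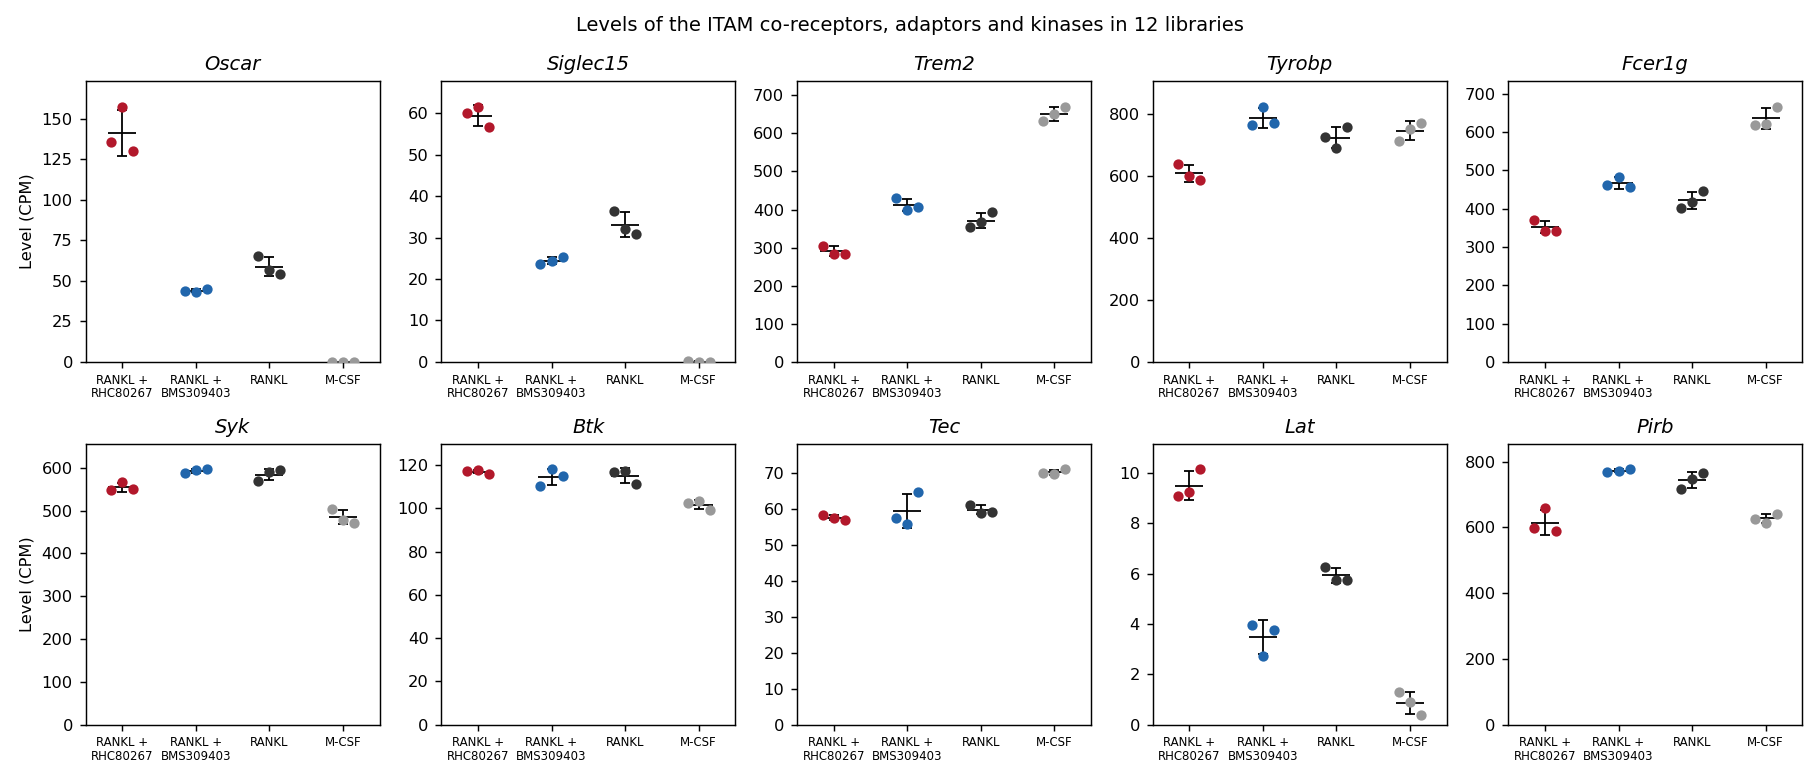
Level of each of the 10 genes in CPM (y axis, linear, from 0) in the 12 libraries, by group (x axis); points are libraries, the long bar is the mean and the whiskers are 1 SD over 3 libraries. Oscar, Siglec15 and Lat are highest with RHC80267 and lowest with M-CSF, while Trem2 and Fcer1g are highest with M-CSF and lowest with RHC80267.

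RANKL was set against M-CSF alone to see how RANKL alters the 10 genes. The receptors Oscar and Siglec15, all but undetected in M-CSF cultures, rose steeply with RANKL, whereas Trem2 and Fcer1g fell. Syk, Btk, Lat and Pirb rose, Tec fell, and Tyrobp was not called. Of the 10 genes, 6 rose and 3 fell, where 61.2% of all 12168 tested genes were called, 31.4% higher and 29.8% lower (edgeR quasi-likelihood test, Benjamini-Hochberg adjusted p below 0.05). The median log2 fold change of the 10 genes was 0.21, against 0.00 over all tested genes. Oscar, Siglec15 and Lat passed the filter on low counts through the groups with RANKL, so they had to differ here. The count of calls, and the p-values of these genes in this comparison, are therefore read no further.

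Among the receptors, Oscar, a collagen receptor, had 65.4, 56.5 and 54.1 CPM in RANKL libraries, against 0.056, 0 and 0.056 CPM in M-CSF libraries. That is 3186 counts over the RANKL libraries and 2 over the M-CSF libraries, a ratio of 1571 with an exact 95% interval of 434.6 to 12980 that covers counting error only (edgeR adjusted p = 3.27e-19). Siglec15, which binds sialylated glycans, had 36.5, 32.2 and 30.8 CPM in RANKL libraries, against 0.17, 0 and 0 CPM in M-CSF libraries. Its 1800 counts against 3 gave a ratio of 591.8, with an interval of 202.2 to 2872 (edgeR adjusted p = 1.07e-18). All 3 of those counts came from M-CSF replicate 1. Without it Siglec15 had no count with M-CSF, so no ratio can be given. With 3 counts assumed for that group the ratio was 394.5, a value set by that choice and not a confidence limit. The log2 fold change fitted by edgeR moved from 9.04 to 12.23 without this library, so its size is not well determined. Without M-CSF replicate 2, which held no count of either gene, the ratio was 394.0 for Siglec15 and 1046 for Oscar. Both genes were thus read in every RANKL library and in at most a few reads with M-CSF. Trem2, a lipid-binding receptor of macrophages, had 353, 367 and 393 CPM in RANKL libraries, against 633, 651 and 670 CPM in M-CSF libraries. The groups did not overlap, and Trem2 fell by 0.81 ± 0.04 on the log2 scale (SE; edgeR adjusted p = 3.99e-13).

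Between the adaptors, only Fcer1g passed the test. Fcer1g had 402, 416 and 446 CPM in RANKL libraries, against 619, 620 and 666 CPM in M-CSF libraries, with a log2 fold change of -0.59 ± 0.04 (edgeR adjusted p = 1.3e-10). Tyrobp had 726, 692 and 758 CPM in RANKL libraries, against 714, 754 and 774 CPM in M-CSF libraries. The Tyrobp libraries of the groups overlapped, and its log2 fold change was -0.04 with a 95% interval of -0.13 to 0.05 (edgeR adjusted p = 0.409).

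The kinases moved by small amounts. Syk, which docks on the phosphorylated ITAM, had 568, 589 and 594 CPM in RANKL libraries, against 504, 479 and 471 CPM in M-CSF libraries, a log2 fold change of 0.27 ± 0.04 (edgeR adjusted p = 9.55e-07). Btk rose by 0.18 ± 0.04 (edgeR adjusted p = 0.000395), with 117, 117 and 111 CPM in RANKL libraries, against 102, 103 and 99.3 CPM in M-CSF libraries. Tec, of the same kinase family as Btk, fell by 0.23 ± 0.05 on the log2 scale (edgeR adjusted p = 0.000241), with 61.1, 58.9 and 59.0 CPM in RANKL libraries, against 69.9, 69.6 and 70.9 CPM in M-CSF libraries. The groups did not overlap for Syk, Btk or Tec. How many of all tested genes did the same was not computed.

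Lat, the scaffold that T cells and mast cells use beneath their antigen and Fc receptors, was low throughout. It had 6.29, 5.74 and 5.76 CPM in RANKL libraries, against 1.29, 0.89 and 0.39 CPM in M-CSF libraries, a log2 fold change of 2.78 ± 0.22 (edgeR adjusted p = 4.45e-10). The T cell marker Cd3e was at 0 to 0.11 CPM in RANKL libraries and 0 to 0.06 CPM in M-CSF libraries, and the 12 T cell markers, of which Cd28 was the highest, summed to 143 to 174 CPM in RANKL libraries and 170 to 179 CPM in M-CSF libraries. The T cell sum was mostly Cd28 and Cd4, and its genes did not move together. Cd28 was at 60.0 to 73.9 CPM in RANKL libraries and 128 to 137 CPM in M-CSF libraries. Cd4 and Cd5, named after their values were seen, were higher with RANKL, Cd5 at 3.53 to 5.19 CPM against 0.17 to 0.62 CPM. Summed mast cell and basophil markers were 13.9 to 15.7 CPM in RANKL libraries and 17.5 to 23.8 CPM in M-CSF libraries. The part of other cells in the Lat level was not tested. Pirb had 718, 748 and 767 CPM in RANKL libraries, against 627, 614 and 642 CPM in M-CSF libraries, and rose by 0.25 ± 0.04 on the log2 scale (edgeR adjusted p = 1.91e-05). Pirb and its activating relatives Pira1, Pira2 and Lilra6, of which Pira1 and Lilra6 were chosen after their values were seen, summed to 1163 CPM on average in RANKL libraries and 782 CPM in M-CSF libraries. Of these, Pira2 averaged 343 CPM in RANKL libraries and 113 CPM in M-CSF libraries.

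BMS309403 was compared with RANKL alone to see what this FABP4 inhibitor changes in RANKL-treated cells. Oscar, Siglec15 and Lat fell, and Trem2 and Fcer1g each rose to 1.11 times their level with RANKL alone. The kinases Syk, Btk and Tec, and Pirb and Tyrobp, were not called. Thus 2 of the 10 genes rose and 3 fell, where 7.23% of tested genes were called, 3.49% higher and 3.74% lower. The median log2 fold change of the 10 genes was 0.01, against -0.01 over all tested genes.

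Oscar had 43.9, 42.9 and 45.0 CPM in BMS309403 libraries, against 65.4, 56.5 and 54.1 CPM in RANKL libraries, a log2 fold change of -0.42 ± 0.07 (edgeR adjusted p = 0.00124). Siglec15 had 23.6, 24.4 and 25.3 CPM in BMS309403 libraries, against 36.5, 32.2 and 30.8 CPM in RANKL libraries, a log2 fold change of -0.44 ± 0.07 (edgeR adjusted p = 0.000971). Every BMS309403 library lay below every RANKL library for both receptors. Lat had 3.97, 2.73 and 3.75 CPM in BMS309403 libraries, against 6.29, 5.74 and 5.76 CPM in RANKL libraries. Its log2 fold change was -0.77 ± 0.17 (edgeR adjusted p = 0.00757), and without BMS309403 replicate 2, the lowest, it was -0.61 and not called (adjusted p = 0.0677). Cd3e was at 0 in the BMS309403 libraries, and summed T cell markers, mostly Cd28 and Cd4, were 202 to 216 CPM there, against 143 to 174 CPM in RANKL libraries.

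Trem2 had 430, 400 and 407 CPM in BMS309403 libraries, against 353, 367 and 393 CPM in RANKL libraries, and rose by 0.15 ± 0.04 on the log2 scale (edgeR adjusted p = 0.0363). Fcer1g had 461, 483 and 455 CPM in BMS309403 libraries, against 402, 416 and 446 CPM in RANKL libraries, and also rose by 0.15 ± 0.04 (edgeR adjusted p = 0.0473). The groups did not overlap, though how many of all tested genes did the same was not computed. Both calls lie close to the threshold. The Trem2 call was lost without RANKL replicate 1 (adjusted p = 0.23), RANKL replicate 2 (0.104), BMS309403 replicate 1 (0.155) or BMS309403 replicate 2 (0.0607), and the Fcer1g call without the same libraries (0.266, 0.132, 0.0813 and 0.216 in that order; edgeR in all).

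Tyrobp had 766, 825 and 774 CPM in BMS309403 libraries, against 726, 692 and 758 CPM in RANKL libraries. Its log2 fold change was 0.12 (95% interval 0.03 to 0.21), but it was not called over all genes (edgeR adjusted p = 0.108). Without RANKL replicate 3 it was called at 0.15 (edgeR adjusted p = 0.0489). Pirb had 768, 772 and 777 CPM in BMS309403 libraries, against 718, 748 and 767 CPM in RANKL libraries, with a 95% interval of -0.03 to 0.14 for its log2 fold change. The 95% intervals of the log2 fold changes of Syk (-0.05 to 0.10), Btk (-0.09 to 0.07) and Tec (-0.11 to 0.09) all included 0.

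RHC80267 was compared with RANKL alone to see what this inhibitor of diacylglycerol lipase changes. Oscar reached 2.40 times and Siglec15 1.79 times its level with RANKL alone, and Lat 1.60 times. Trem2, both adaptors and Pirb fell to between 0.78 and 0.84 times their level with RANKL alone. Syk, Btk and Tec were not called. Of the 10 genes 3 rose and 4 fell, where 49.9% of tested genes were called, 26.9% higher and 23.0% lower. The median log2 fold change of the 10 genes was -0.06, against 0.02 over all tested genes. The RANKL libraries are the same as in the BMS309403 comparison, so the inhibitors' differences from them are not independent.

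Oscar had 135.8, 157.4 and 130.1 CPM in RHC80267 libraries, against 65.4, 56.5 and 54.1 CPM in RANKL libraries, a log2 fold change of 1.27 ± 0.07 (edgeR adjusted p = 1.02e-12). Siglec15 had 60.0, 61.6 and 56.7 CPM in RHC80267 libraries, against 36.5, 32.2 and 30.8 CPM in RANKL libraries, a log2 fold change of 0.84 ± 0.07 (edgeR adjusted p = 9.24e-10). Neither receptor had a RHC80267 library below its highest RANKL library. Lat had 9.10, 9.26 and 10.2 CPM in RHC80267 libraries, against 6.29, 5.74 and 5.76 CPM in RANKL libraries, a log2 fold change of 0.68 ± 0.14 (edgeR adjusted p = 0.000448). Summed T cell markers were 99.1 to 109 CPM in RHC80267 libraries, against 143 to 174 CPM in RANKL libraries, and mast cell and basophil markers 8.35 to 13.95 CPM, against 13.94 to 15.7 CPM. Cd5 of the T cell list, named after its value was seen, was instead higher, at 5.43 to 6.81 CPM against 3.53 to 5.19 CPM.

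Trem2 had 305, 284 and 284 CPM in RHC80267 libraries, against 353, 367 and 393 CPM in RANKL libraries, a log2 fold change of -0.35 ± 0.04 (edgeR adjusted p = 9.8e-07). Its adaptor Tyrobp had 641, 600 and 588 CPM in RHC80267 libraries, against 726, 692 and 758 CPM in RANKL libraries, a log2 fold change of -0.25 ± 0.04 (edgeR adjusted p = 7.08e-05). Fcer1g, the adaptor of Oscar, had 370, 342 and 342 CPM in RHC80267 libraries, against 402, 416 and 446 CPM in RANKL libraries, a log2 fold change of -0.26 ± 0.04 (edgeR adjusted p = 5.25e-05). Both adaptors were thus lower where the receptors Oscar and Siglec15 were higher. The groups did not overlap for these genes, but how many of all tested genes did the same was not computed. Pirb had 598, 658 and 588 CPM in RHC80267 libraries, against 718, 748 and 767 CPM in RANKL libraries, and fell by 0.28 ± 0.04 on the log2 scale (edgeR adjusted p = 8.64e-06). The Pirb, Pira1, Pira2 and Lilra6 sum averaged 900.6 CPM in RHC80267 libraries and 1163 CPM in RANKL libraries. Summed macrophage and neutrophil markers, given above, were also lower with RHC80267. The macrophage markers did not move together, and most of their sum was Lyz2, at 13748 to 14764 CPM against 18196 to 19810 CPM. Csf1r was at 2732 to 2767 CPM, against 2787 to 2823 CPM. Mertk (169 to 185 against 103 to 125 CPM) and C1qa (580 to 607 against 485 to 513 CPM), named after their values were seen, were higher.

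Syk had 548, 566 and 550 CPM in RHC80267 libraries, against 568, 589 and 594 CPM in RANKL libraries, a log2 fold change of -0.07 with a 95% interval of -0.15 to 0.00 (edgeR adjusted p = 0.0842). The groups did not overlap. Syk was called when only these 2 groups were fitted (-0.10, edgeR adjusted p = 0.0279) and with a stricter filter on low counts (-0.09, edgeR adjusted p = 0.0432). It was also called without RANKL replicate 1 (-0.09, edgeR adjusted p = 0.0464). Under every other alternative run, DESeq2 among them, Syk was not called. In the authors' deposited table Syk had a log2 fold change of -0.09 and a q-value of 0.0286, the 1 call on these 10 genes in which that table differed. The 95% intervals of the log2 fold changes of Btk (-0.06 to 0.10) and Tec (-0.15 to 0.05) included 0, although the Tec libraries did not overlap.

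**Figure D2:**
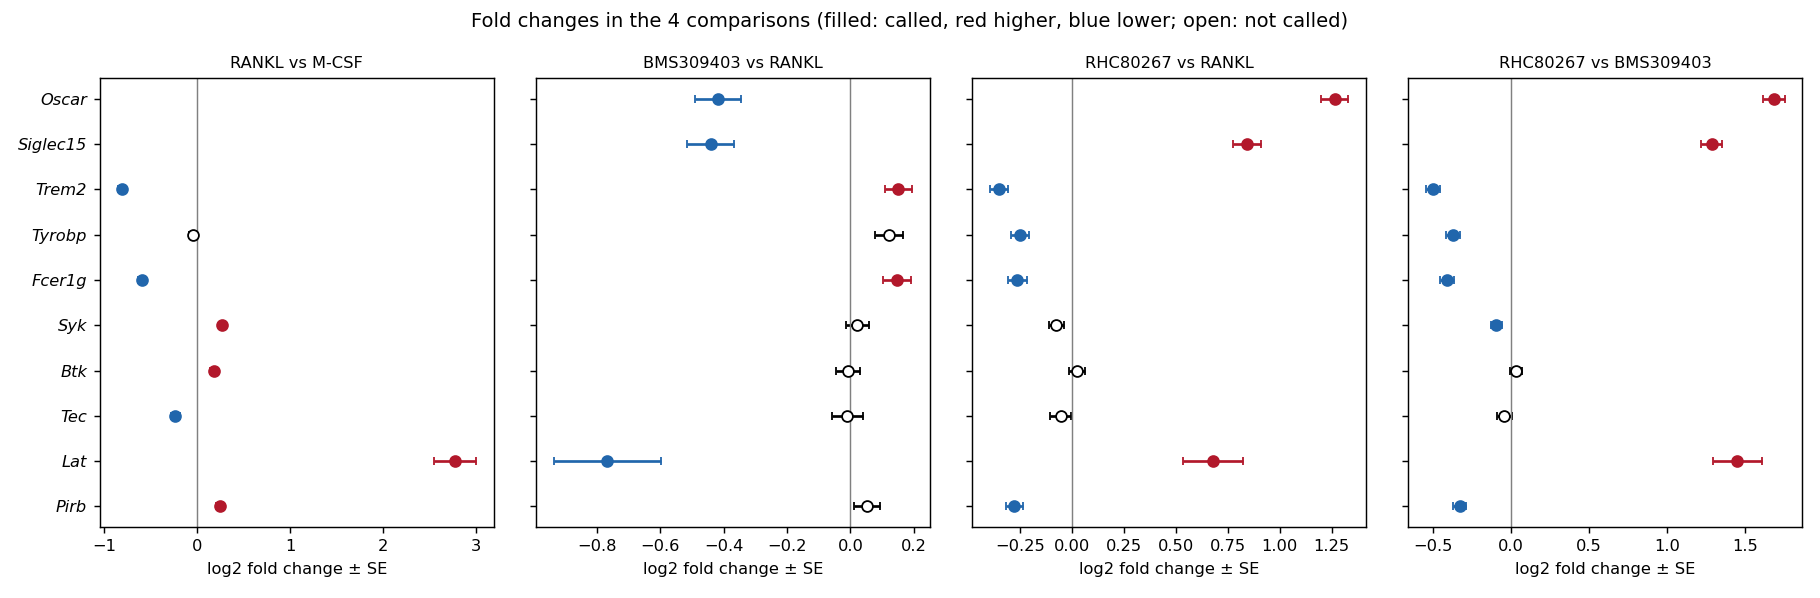
Log2 fold change of each of the 10 genes (points, x axis with a scale of its own in each panel) with its SE (bars) from the edgeR fit; filled points are called and open ones are not, in the comparisons named above the panels. Oscar and Siglec15 against M-CSF are not drawn as folds because M-CSF libraries held 2 and 3 counts of them. With BMS309403, Oscar, Siglec15 and Lat lie below 0, and with RHC80267 they lie above it.

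RHC80267 and BMS309403 were given at the same dose and time, so their libraries were also set against each other. The compounds are not structural relatives, and each carries another named target. Of the 10 genes 3 were higher and 5 lower with RHC80267 than with BMS309403, where 55.5% of tested genes were called, 30.1% higher and 25.5% lower. Oscar was higher by 1.68 ± 0.07 on the log2 scale, Siglec15 by 1.28 ± 0.07 and Lat by 1.45 ± 0.16 (edgeR adjusted p = 1e-14, 1.19e-12 and 8.28e-08). Trem2, Fcer1g, Tyrobp and Pirb were lower, with log2 fold changes of -0.50, -0.41, -0.37 and -0.33. The groups did not overlap for these genes or for Oscar, Siglec15 and Lat. How many of all tested genes did the same was not computed. Syk was lower by a log2 fold change of -0.10 ± 0.04 (edgeR adjusted p = 0.0245), a call lost without RHC80267 replicate 1 (adjusted p = 0.0806) or RHC80267 replicate 3 (adjusted p = 0.0729). Btk and Tec were not called, with 95% intervals of -0.05 to 0.11 and -0.15 to 0.06 for their log2 fold changes. The median log2 fold change of the 10 genes was -0.07, against 0.03 over all tested genes.

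Levels per transcript length, in the authors' FPKM, allow the genes to be ordered. In every group the order began with Tyrobp, then Fcer1g, Trem2, Pirb and Syk. Tyrobp averaged 2417 FPKM with RHC80267, 2981 with BMS309403, 2881 with RANKL and 2875 with M-CSF. With RHC80267, Oscar, Btk, Siglec15, Tec and Lat followed in that order. With BMS309403 and with RANKL alone, Btk came before Oscar and Tec before Siglec15, and with M-CSF the order was Btk, Tec, Lat and then Oscar and Siglec15, which shared a level of 0.027 FPKM. All neighbours in these orders were apart in their libraries except Oscar and Siglec15 with M-CSF. Oscar averaged 96.2 FPKM with RHC80267, 28.5 with BMS309403, 39.1 with RANKL and 0.027 with M-CSF.

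Even where they were highest, the RANKL-induced receptors were scarce beside their adaptors at the level of RNA per length. Oscar was at 8.25% to 10.3% of Fcer1g in RHC80267 libraries, 2.02% to 2.22% in BMS309403 libraries, 2.76% to 3.53% in RANKL libraries and at most 0.0022% in M-CSF libraries. Siglec15 was at 1.22% to 1.34% of Tyrobp in RHC80267 libraries, 0.397% to 0.425% in BMS309403 libraries, 0.539% to 0.623% in RANKL libraries and at most 0.0028% in M-CSF libraries. Trem2 was at 15.6% to 16.4% of Tyrobp in RHC80267 libraries, 16.3% to 18.5% in BMS309403 libraries, 15.5% to 17.4% in RANKL libraries and 28.6% to 28.9% in M-CSF libraries. The Trem2 share thus separated M-CSF from the other groups, whose ranges overlapped, while the Oscar and Siglec15 shares separated all 4 groups. Fcer1g made up 30.2% to 30.8% of the sum of both adaptors in RHC80267 libraries, 30.9% to 31.3% in BMS309403 libraries, 29.3% to 31.2% in RANKL libraries and 38.5% to 39.5% in M-CSF libraries. These shares compare RNA, not protein, and were not tested.

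**Figure D3:**
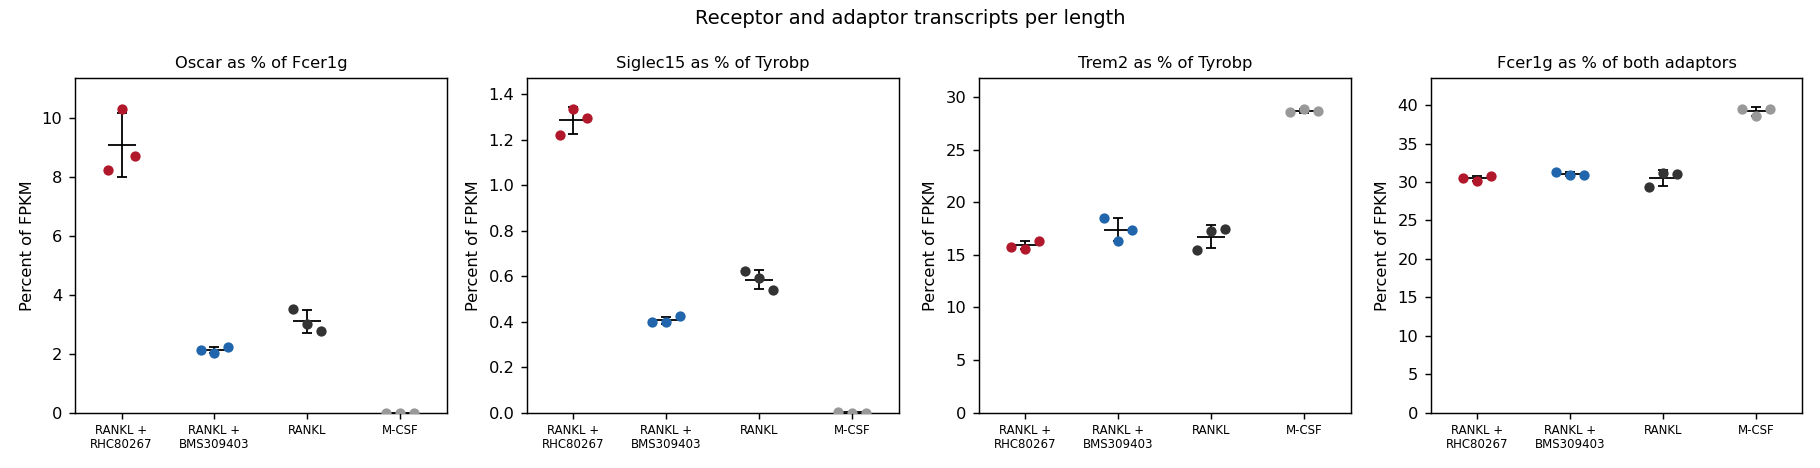
Per-library ratios of receptor to adaptor in the authors' FPKM, by group; points are the 3 libraries of a group. The Oscar share of Fcer1g and the Siglec15 share of Tyrobp are highest with RHC80267, and the Trem2 share of Tyrobp is highest with M-CSF.

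The wider pathway was read from 102 other genes that passed the filter, in lists of activating receptors and ITAM adaptors, inhibitory receptors and phosphatases, Src family kinases and their regulators, other kinases of the SYK and TEC families, adaptors downstream of SYK, and phospholipase C gamma with its effectors. With RANKL against M-CSF 38 of the 102 rose and 41 fell, with a median log2 fold change of 0.01. Of all tested genes 31.4% rose and 29.8% fell. The counts per list are descriptions and were not tested against such shares. Of the 27 activating genes 9 rose and 9 fell: Pira2 rose by 1.60 ± 0.04 and Fcgr1, the high-affinity IgG receptor that signals through Fcer1g, had a log2 fold change of -1.17 ± 0.05. Of the 27 inhibitory genes 11 rose, among them Clec12a (0.70), and 10 fell, among them the collagen receptor Lair1 (-0.90). Src, the kinase osteoclasts need to resorb bone, rose by 4.64 ± 0.09 on the log2 scale, to 133 CPM in RANKL libraries, against 5.32 CPM in M-CSF libraries, and Fgr rose by 1.71 ± 0.09. Altogether 4 of the 9 Src family kinases and their regulators rose and 5 fell. Of the 4 other SYK and TEC family kinases 1, Bmx, passed the filter, and it was not called in any comparison (log2 fold changes of 0.10 here, -0.05 with BMS309403 and -0.32 with RHC80267 against RANKL). Of the 20 adaptors 8 rose and 10 fell, among them Fyb (-0.65) and Themis2 (-0.72). Of the 18 genes listed as phospholipase C gamma and proximal effectors 6 rose and 7 fell. Rasgrp1 (3.66), which is activated by diacylglycerol, was among those that rose, and Pik3cg (-0.85) among those that fell.

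With BMS309403 against RANKL 14 of these 102 genes rose and 8 fell, with a median of -0.01. Of all tested genes 3.49% rose and 3.74% fell. Among the activating receptors 7 of 27 rose and 1 fell, Sirpb1c (-0.19), named after its value was seen and not called with DESeq2 or without any of 4 single libraries. Fcgr1 (0.44) and Fcgr3 (0.29), both partners of Fcer1g, rose. Without RANKL replicate 1 the 7 became 3. Among the inhibitory genes 5 of 27 rose, among them Lilrb4a (0.19) and Cd300a (0.20), a count of 1 without RANKL replicate 1 and 2 without BMS309403 replicate 2. Of the 9 Src family kinases and their regulators 2 fell, the kinase Src (-0.32) and the regulator Ptpn22 (-0.23). Of these 2 genes 1 was called without RANKL replicate 1 or without BMS309403 replicate 2. The adaptors Themis2 (0.28) and Gab1 (0.26) rose. Of the 18 genes listed as phospholipase C gamma and proximal effectors 5 fell, among them Pik3cb (-0.26) and Malt1 (-0.21). This count was 1 without RANKL replicate 1 and 3 without RANKL replicate 2. It was 2 without BMS309403 replicate 1 or BMS309403 replicate 2.

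With RHC80267 against RANKL 16 of the 102 genes rose and 64 fell, and their median was -0.29, against 0.02 over all tested genes. Of all tested genes 26.9% rose and 23.0% fell. Of the 27 activating genes 24 fell, with a list median of -0.68, among them Cd300ld (-1.20 ± 0.05) and Fcgr1 (-1.29 ± 0.06). Of the 27 inhibitory genes 18 fell, among them Cd33 (-1.02) and Lilrb4a (-0.65), and 7 rose. Of the 9 Src family kinases and their regulators 5 fell, among them Lyn (-0.39) and the phosphatase Ptprc (-0.60). The 1 that rose was Src (0.56), named after its value was seen. Of the 20 adaptors 11 fell and 3 rose, with Pik3ap1 (-0.65) and Sh3bp2 (-0.52) named; without RHC80267 replicate 1 the 11 became 7. Of the 18 genes listed as phospholipase C gamma and proximal effectors 6 fell, among them Malt1 (-0.38), and 5 rose, among them Rasgrp1 (1.16 ± 0.08). Oscar and Siglec15 thus rose while 24 of the 27 other activating genes fell. Summed neutrophil markers, though not the defining marker Ly6g, were lower with RHC80267 too, and their part in this result was not tested.

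**Figure D4:**
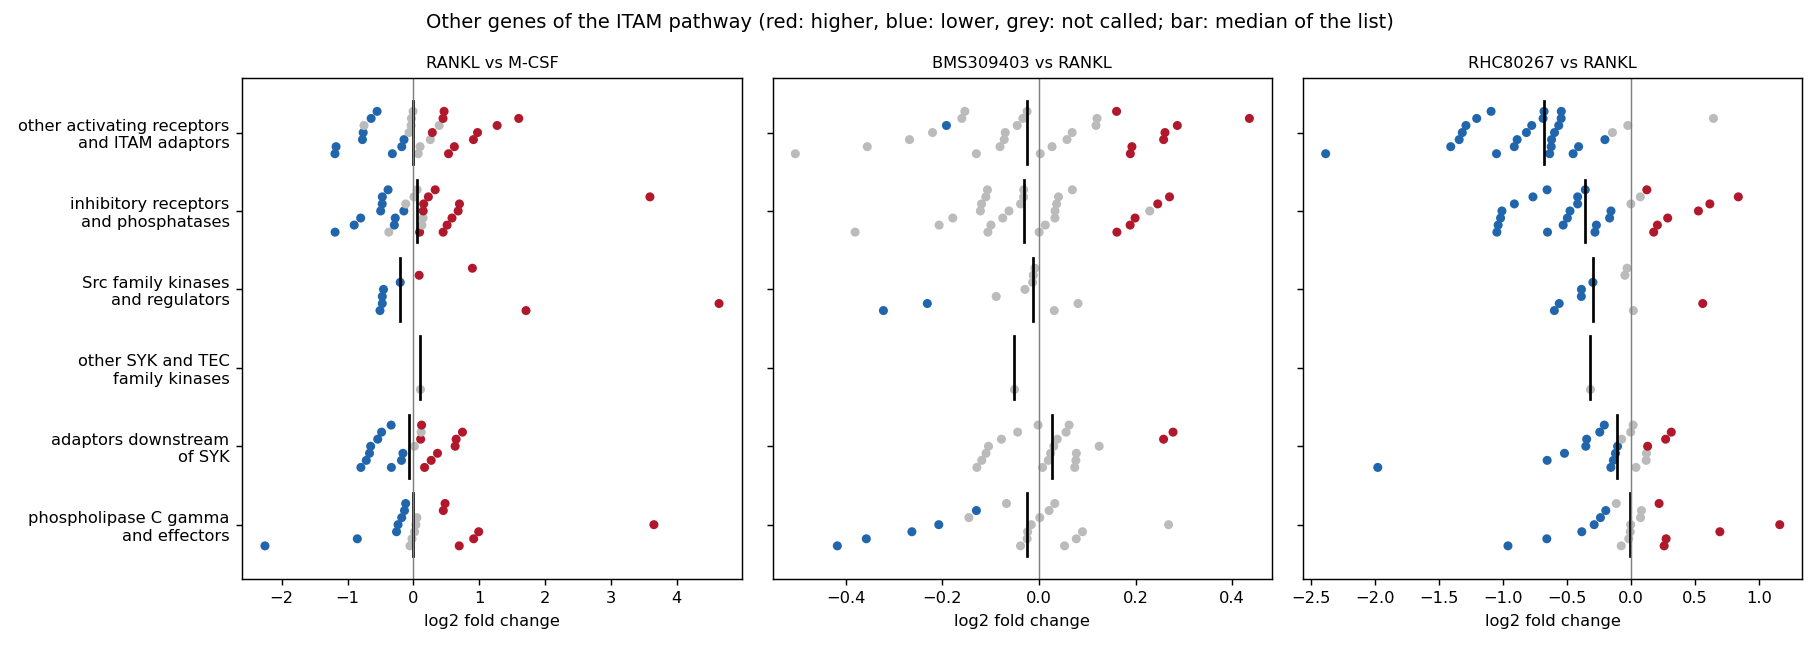
Log2 fold changes (x axis, a scale of its own in each panel) of the 102 other genes of the pathway by list, from the edgeR fit; each point is a gene, red if called higher, blue if called lower, grey if not called, and the bar is the list's median. With RHC80267 the points of the activating receptors lie mostly to the left, with 24 of 27 called lower, where 23.0% of all tested genes were.

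The genes with the profile nearest to each member were found by the root mean square difference of log2 levels, each gene centred on its own mean, over the 12 libraries and among 9840 genes that averaged at least 5 CPM. Nearest to Oscar were Mst1r (0.22), Rufy4 (0.22) and Slc9b2 (0.23), and nearest to Siglec15 were Mmp9 (0.23), Dcstamp (0.24) and Ocstamp (0.27). Mmp9 encodes a secreted protease, and Dcstamp and Ocstamp encode membrane proteins of cell fusion. Nearest to Lat were Slc5a3 (0.20), Grk3 (0.23) and Adgra3 (0.24). Trem2 was nearest to Tlr7 (0.06), C3ar1 (0.06) and Slc2a9 (0.07), and Fcer1g to Alox5ap (0.03), Pip4p1 (0.05) and Tgif1 (0.06). Tyrobp was nearest to Glipr1 (0.04), Psmb8 (0.04) and Pex3 (0.05), and Pirb to Mcl1 (0.05), Rasgrp4 (0.05) and Psmd8 (0.05). For the kinases, Colgalt1 was nearest to Syk (0.03), Arih1 to Btk (0.02) and Cic to Tec (0.03). Genes with flat profiles are near many others, so small differences for the kinases say little. Within the 10 genes Syk and Btk were nearest (0.07), then Syk and Pirb (0.10) and Trem2 and Fcer1g (0.12). Of these genes Siglec15 was the nearest to Oscar (0.47), ahead of Lat (2.10). Large changes give large differences, so such pairs cannot be ranked against flat ones.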

How the data were processed

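The authors deposited a table with 1 read count column per library, per the file headers, taken here as RSEM expected counts because 9.49% to 9.89% of a library's values were not whole. It also holds the authors' FPKM and TPM values, and the authors' log2 fold changes and q-values. Per the submitters' processing notes the tools were DESeq2 1.4.5, RSEM 1.3.1 and Bowtie2. The sources used here do not give their settings, or whether counting used strand.

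Expected counts were rounded, 4402 genes were removed with filterByExpr and 12168 tested. All 12 libraries entered 1 quasi-likelihood fit (edgeR 4.0.16, R 4.3.3) with TMM factors, no term besides group, and 8 residual degrees of freedom. A call is an adjusted p (Benjamini-Hochberg, over all tested genes) below 0.05 in a 2-sided test. "Rose" and "fell" mean called, and errors of fold changes are SE. Groups said not to overlap are only described, since the share of all tested genes that did the same was not computed. CPM uses TMM-adjusted library sizes, and the deposited FPKM was used only between genes. The 10 genes, the pathway and marker lists and the tests were chosen with earlier results of these data known. At most 2 genes per list and comparison are named, the called genes with the smallest p, and other names are marked as chosen after their values were seen. Of each marker list the first and the highest gene could be named. Nearest profiles used log2 of CPM plus 0.5. The fit was tested on simulated data. Alternatives were DESeq2 1.42.0, limma-voom (limma 3.58.1), RLE factors, other filters, only the groups compared, a replicate block and each library left out.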

Additional observations from a re-analysis of the deposited data

How the results depend on the processing

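Each fold change of the 10 genes and each count was recomputed under every alternative. Of the recomputed fold changes of single genes 504 stayed on their side of the threshold, 12 lost the call, 4 gained it, and in none did a called value change direction. Uncalled values of Btk and Tec crossed 0, as with BMS309403, where they ranged from -0.03 to 0.02 and from -0.07 to 0.04. These calls are those of Trem2, Fcer1g, Lat and Tyrobp with BMS309403 against RANKL and of Syk with RHC80267 against RANKL or BMS309403. Oscar and Siglec15 kept their BMS309403 calls in every alternative run, with log2 fold changes of -0.47 to -0.33 and -0.49 to -0.37 (adjusted p up to 0.0141 and 0.00982).

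With BMS309403 the count of 2 genes higher was 1 with a replicate block, where Fcer1g was no longer called (0.15, adjusted p = 0.0562). With single libraries left out it ranged from 0 to 3, the 3 without RANKL replicate 3, when Tyrobp was also called. It was 0 by edgeR without RANKL replicate 1, RANKL replicate 2, BMS309403 replicate 1 or BMS309403 replicate 2, when 3, 2, 3 and 2 of the 10 genes were higher at an unadjusted p below 0.05. Over all genes the 425 higher were 152 without RANKL replicate 1 and 171 without BMS309403 replicate 2, and the 455 lower were 111, 287, 299 and 145 without those 4 libraries in that order. The order of levels matched in 38 of 40 places with TPM in place of FPKM, the exception being the tie of Oscar and Siglec15 with M-CSF. CPM per kilobase was not run.

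Pairing was checked on log2 levels of the more abundant genes, after each gene's mean in its group was subtracted. These deviations correlated between same-numbered libraries at -0.08 to 0.09 for RANKL against M-CSF and -0.17 to 0.15 for BMS309403 against RANKL. They correlated at 0.01 to 0.04 for RHC80267 against RANKL and 0.07 to 0.10 for RHC80267 against BMS309403. The replicate numbers were therefore not read as pairs. Depth limits Oscar and Siglec15 in M-CSF libraries, where a library held at most 1 and 3 counts, and Lat, with 7 to 23.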
